A study of Rattus norvegicus with 78 samples.

Results

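Frontal cortex of the rat was sorted here by its content of Arc mRNA. Of 78 arrays in the series, 39 were from the prefrontal/frontal cortex (P/FC), each from the frontal lobe of 1 adult male rat. Within each of the 4 groups formed by line and cohort, the P/FC arrays were ranked by the intensity of the Arc probeset, and as many arrays as the group size divided by 3, rounded down, were taken from the top and from the bottom. The members were thus chosen by Arc intensity itself. This gave 12 high Arc arrays and 12 low Arc arrays, with 15 arrays left between them. The Flinders Sensitive Line (FSL), a genetic rat model of depression, gave 3 high and 3 low arrays from cohort 1, with 2 high and 2 low arrays from cohort 2. The Flinders Resistant Line (FRL), its control, gave 4 high and 4 low arrays from cohort 1, with 3 high and 3 low arrays from cohort 2. The cohorts were collected months apart with other reagents. Per the methods the animals were decapitated a week after a forced swim test, and the right frontal lobe was taken whole. The lines were made by selective breeding, so that effects of the selected trait and of other alleles fixed in a line cannot be told apart. Each array was set only against arrays of its own line and cohort. The labelling batches within a cohort are not in the labels, and their part in the results was not tested. The arms are not treatment groups, and a difference between them is covariation with Arc between rats.

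Arc is an immediate early gene. Strong synaptic input, through calcium and MAP kinases, switches on such genes in excitatory neurons without the need for new protein, and the RNA lasts only for a short time. Some of these genes encode transcription factors (Fos, Egr1, Nr4a1) and others act on the synapse or on the signalling pathway itself, as Arc does when it removes AMPA receptors from the membrane and as the phosphatase Dusp1 does when it inactivates MAP kinases. In frontal cortex these RNAs are widely used as markers of recent neuronal activity, and they respond to handling, to novelty and to the time of day. In RNA of a whole lobe, fewer cells of a type and less RNA per cell cannot be told apart.

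Immediate early genes share short promoter motifs for CREB and for the serum response factor, so the promoters of the genes on which the results turn are shown. Of 11 such genes, 8 were found in the RefSeq promoter set of build GRCr8, which holds 250 bases before and 50 bases after the start of each gene. Arc, Klf2 and Fos are named only. Both strands were searched for the cyclic AMP response element TGACGTCA, for its shorter form TGACG, which each TGACGTCA holds on both strands, and for the CArG box of the serum response factor. TGACG lay in 5 of these 8 promoters and in 21.2% of all 33469 promoters in the set, TGACGTCA in that of Dusp1 alone among the 8 and in 1.83% of all, and the CArG box in those of Egr1 and Egr2 and in 1.64% of all. The promoters of Tiparp, Dusp6 and Per1 held none of these letters in this window. The 5 with a match are Nr4a1 (chr7:134259888-134260187, plus strand), Dusp1 (chr10:17184603-17184902, plus strand), Junb (chr19:40080876-40081175, plus strand), Egr1 (chr18:26736828-26737127, plus strand) and Egr2 (chr20:21054392-21054691, minus strand). They are written from 5′ to 3′, with the matched letters of any of these motifs, on either strand, in capitals.
Nr4a1: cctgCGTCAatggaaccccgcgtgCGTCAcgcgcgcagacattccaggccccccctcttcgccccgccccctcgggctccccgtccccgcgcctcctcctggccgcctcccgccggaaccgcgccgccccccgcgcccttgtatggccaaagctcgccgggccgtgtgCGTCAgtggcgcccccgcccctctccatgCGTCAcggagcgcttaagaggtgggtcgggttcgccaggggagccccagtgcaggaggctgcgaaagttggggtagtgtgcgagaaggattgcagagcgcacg
Dusp1: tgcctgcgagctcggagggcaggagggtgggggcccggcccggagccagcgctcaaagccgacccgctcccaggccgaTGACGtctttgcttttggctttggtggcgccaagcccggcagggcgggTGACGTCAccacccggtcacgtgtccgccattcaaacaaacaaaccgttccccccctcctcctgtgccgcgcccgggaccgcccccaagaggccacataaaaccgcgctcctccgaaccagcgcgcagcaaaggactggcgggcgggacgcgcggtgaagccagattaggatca
Junb: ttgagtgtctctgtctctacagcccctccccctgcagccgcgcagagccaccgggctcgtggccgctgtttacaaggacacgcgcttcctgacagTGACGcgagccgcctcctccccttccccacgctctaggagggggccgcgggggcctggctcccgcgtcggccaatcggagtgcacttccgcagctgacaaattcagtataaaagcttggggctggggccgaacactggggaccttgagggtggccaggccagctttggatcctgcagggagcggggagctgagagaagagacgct
Egr1: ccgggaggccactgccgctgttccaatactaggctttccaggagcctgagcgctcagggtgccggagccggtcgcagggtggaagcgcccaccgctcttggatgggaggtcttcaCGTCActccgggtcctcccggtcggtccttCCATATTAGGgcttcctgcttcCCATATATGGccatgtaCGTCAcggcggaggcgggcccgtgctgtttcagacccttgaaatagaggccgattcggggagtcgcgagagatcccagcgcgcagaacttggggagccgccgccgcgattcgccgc
Egr2: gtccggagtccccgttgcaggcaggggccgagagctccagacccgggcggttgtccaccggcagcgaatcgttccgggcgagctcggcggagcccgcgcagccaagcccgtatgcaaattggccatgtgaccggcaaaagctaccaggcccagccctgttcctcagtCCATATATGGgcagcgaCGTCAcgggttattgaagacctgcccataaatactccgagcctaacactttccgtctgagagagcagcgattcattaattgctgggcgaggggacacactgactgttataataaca

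Arc itself chose the arrays, so its values are given with no test. It ranged in the high Arc arrays between 385 and 1459 with a median of 977, and in the low Arc arrays between 130 and 792 with a median of 419. These ranges overlap because the groups lie at different levels. The group medians were 326 and 718 in FSL rats of cohort 1 and cohort 2, against 678 and 1156 in FRL rats. Within a group, the mean of the high arrays was 3.11 times that of the low arrays in FSL rats of cohort 1 and 2.07 times in cohort 2, against 2.58 and 2.02 times in FRL rats, and 2.45 times over all 4 groups. The last high array and the first array left out lay close to each other in FRL rats of cohort 1 (851 and 845) and in FSL rats of cohort 2 (977 and 871), as they did in FSL rats of cohort 1 (385 and 356) and FRL rats of cohort 2 (1426 and 1326). At the lower end, the first low array and its neighbour above had 187 and 245 in FSL rats of cohort 1, 580 and 594 in FSL rats of cohort 2, 547 and 583 in FRL rats of cohort 1, and 792 and 938 in FRL rats of cohort 2.

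**Figure D1:**
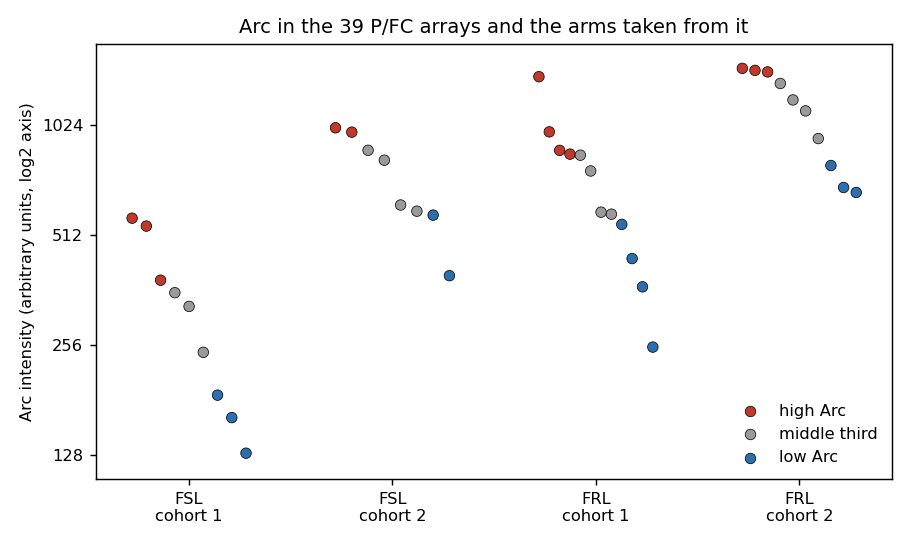
Arc intensity (log2 axis, arbitrary units) of each of the 39 P/FC arrays by line and cohort, ordered by level within a group, with the 12 high Arc arrays in red, the 12 low Arc arrays in blue and the 15 between in grey. High arrays of FSL rats in cohort 1 (385 to 569) lie below the low arrays of FRL rats in cohort 2 (668 to 792), which is why arms were taken within groups.

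No measure of RNA quality passed a test between the arms. For Gapdh, the 3′ over 5′ probeset ratio, which grows as RNA is degraded, had on the log2 scale a median of 0.82 in high Arc arrays (0.66 to 1.09) and 0.85 in low Arc arrays (0.70 to 1.02), a difference within groups of -0.0034. By an exact permutation test of labels within the 4 groups (168000 arrangements, two-sided, adjusted over 4 measures), the adjusted p was 0.926 for this ratio and 0.819 each for the Actb ratio, for median intensity and for the percent of probesets over 30. The median intensity was 60.8 to 64.6 in high Arc arrays and 61.1 to 65.9 in low Arc arrays. Cortical markers were present in the tissue, with 8 of 9 genes of the upper layers and 10 of 11 of the deep layers above the intensity filter.

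Against Arc, 22369 probesets that passed the filter were tested with limma on the log2 scale, with the group as covariate and with Arc left out. Of these, 9 rose with Arc (adjusted p under 0.05), which is 0.0402% of those tested, and none fell. At an unadjusted p under 0.05, 653 probesets (2.92%) were higher and 341 (1.52%) lower in high Arc arrays. A plain analysis of variance, without limma's shared variance, called 3, all higher. The 9 probesets represent Nr4a1, Dusp1 (by both of its probesets), Klf2 and Junb, and 4 further probesets with no gene symbol in the annotation. All 9 had a higher mean in the high Arc arrays of each of the 4 groups, as did 6.32% of all probesets, though the 9 were called on these same arrays. With 1 array left out the count was between 3 and 13. It was 3 without FRL P/FC cohort 2 replicate 2, 4 without FSL P/FC cohort 2 replicate 1, and 5 without any 1 of FRL P/FC cohort 2 replicate 5, FSL P/FC cohort 1 replicates 4 and 5, and FSL P/FC cohort 2 replicate 7.

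Nr4a1, an orphan nuclear receptor and immediate early transcription factor, followed Arc most closely among the named genes. Its intensity was 404 to 1135 (median 832) in high Arc arrays and 203 to 695 (median 402) in low Arc arrays. Within FSL rats of cohort 1 the high arrays had 404, 495 and 526.1, against 203, 218 and 278 in the low arrays. FSL rats of cohort 2 had 814 and 875 in the high arrays, against 415 and 648 in the low arrays. In FRL rats of cohort 1 the high arrays had 534, 543, 849 and 1073, against 276, 312, 397 and 407 in the low arrays. In FRL rats of cohort 2 they had 1022, 1102 and 1135, against 576, 689 and 695. No high array overlapped a low array of its own group, which held for 3 of the 22369 probesets (0.0134%). The difference was 0.91 ± 0.11 on the log2 scale (SE), 1.88-fold, with an adjusted p of 0.000429 by limma, and it remained past the threshold whichever of the 24 arrays was left out.

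Junb, a subunit of the AP-1 transcription factor, rose 1.71-fold (0.77 ± 0.14, adjusted p = 0.0326 by limma). It had 140 to 414 (median 227) in high Arc arrays and 93.1 to 173 (median 145) in low Arc arrays. The arms were apart in 3 groups and overlapped in FRL rats of cohort 1, where the high arrays had 146, 159, 207 and 414 and the low arrays 139, 150, 151 and 173. This call was kept in 7 of the 24 fits with 1 array left out, the adjusted p reaching 0.0904 without FRL P/FC cohort 2 replicate 5.

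Klf2, a Krüppel-like transcription factor known from the endothelium, where blood flow induces it, had the largest difference of the 9, 2.50-fold (1.32 ± 0.23, adjusted p = 0.0307 by limma). Its probeset 1376569_at had 41.1 to 353 (median 126) in high Arc arrays and 20.2 to 88.6 (median 59.7) in low Arc arrays, which overlapped only in FSL rats of cohort 1 among the 4 groups. The other kept Klf2 probesets did not pass, with 0.23 for 1394068_x_at, 0.15 for 1375248_at and -0.07 for 1386040_at, so that the probesets of this gene disagree. The call was kept in 12 of the 24 fits with 1 array left out, with an adjusted p of up to 0.0850 without FSL P/FC cohort 1 replicate 4. Markers of endothelial and mural cells had none past the threshold of 11 kept, with a median difference of 0.04.

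Dusp1, the phosphatase that inactivates MAP kinases and is itself induced by them, rose in both probesets. The brighter one (1368146_at) had 275 to 866 (median 554) in high Arc arrays and 170 to 424 (median 309) in low Arc arrays, a difference of 0.84 ± 0.14 (1.79-fold, adjusted p = 0.0174 by limma). The dimmer one (1368147_at) had 63.0 to 244 (median 107) and 27.7 to 91.2 (median 58.8), a difference of 1.05 ± 0.18 (2.07-fold, adjusted p = 0.0199). The arms of the brighter probeset were apart in all groups but FRL rats of cohort 1, where a high array at 275 lay under low arrays at 304 and 314. Its call was lost without FRL P/FC cohort 2 replicate 2 only (adjusted p = 0.0503), and that of the dimmer one was kept in 18 of 24 such fits, with an adjusted p of up to 0.0557.

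The 4 probesets without a symbol rose as well. The strongest result of all kept probesets was 1385757_at, with 197 to 422 (median 351) in high Arc arrays and 127 to 217 (median 162) in low Arc arrays, a difference of 0.91 ± 0.09 (adjusted p = 3.38e-05 by limma). Its arms were apart in each of the 4 groups. So were those of 1392108_at, which had 90.7 to 405 in high Arc arrays and 60.5 to 208 in low Arc arrays (0.86 ± 0.13, adjusted p = 0.0044). The other 2 were 1386995_at (0.82 ± 0.14, adjusted p = 0.0257) and 1377555_at (0.67 ± 0.11, adjusted p = 0.0199). The arms of 1377555_at overlapped in both cohorts of FRL rats. With log2 Arc as a number over all 39 arrays, 1377555_at did not pass (adjusted p = 0.118 by limma).

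**Figure D2:**
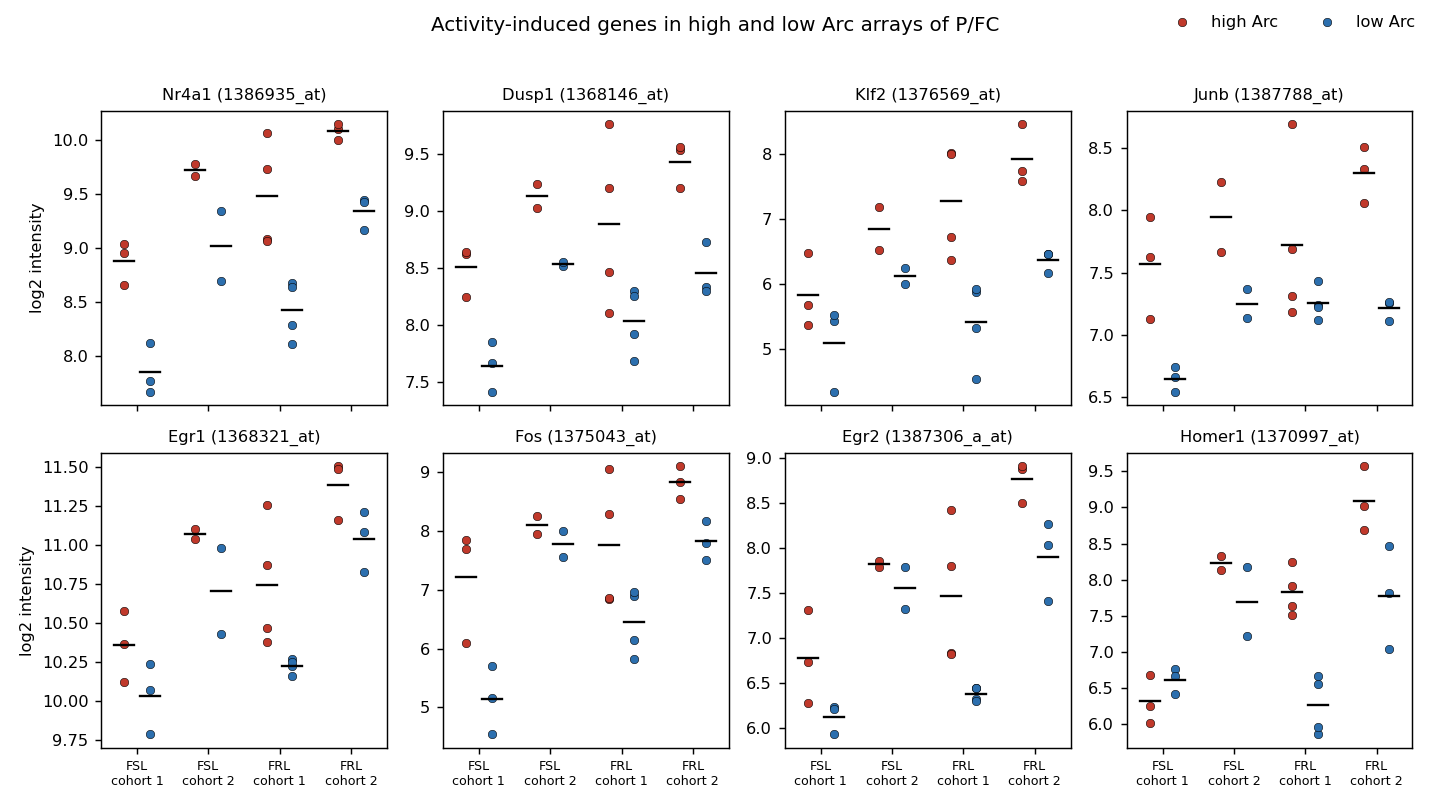
Log2 intensity of 8 genes in the high Arc arrays (red, left of each pair) and the low Arc arrays (blue) of each line and cohort, with a bar at the mean of each arm. For Nr4a1 no red point lies at or below a blue point of its pair, while for Homer1 in FSL rats of cohort 1 the bar of the high Arc arrays is below that of the low Arc arrays.

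Among activity-induced transcription factors, a list of 23 genes of which 18 were kept, 2 (Nr4a1 and Junb) passed the threshold, against 0.0402% of all probesets. None passed in the lower direction, and 16 did not pass. The gene lists were chosen with earlier results of these data known, so a comparison of a list with all probesets is not an independent test. The members had a median difference of 0.44, against 0.0019 for all kept probesets. A positive difference was seen in 16 of the 18, as in 50.9% of all probesets, and 11 were higher at an unadjusted p under 0.05, against the 2.92% of all probesets given above. Fos, a subunit of AP-1, had 68.0 to 546 (median 276) in high Arc arrays and 23.3 to 286 (median 122) in low Arc arrays, a difference of 1.26 ± 0.27 (2.39-fold) that did not pass at an adjusted p of 0.158. Its second kept probeset, 1371283_at, had 0.11 ± 0.11. Egr1, a zinc finger factor, had 1116 to 2905 (median 1986) in high Arc arrays and 882 to 2374 (median 1226) in low Arc arrays, a difference of 0.40 ± 0.09 (1.32-fold, adjusted p = 0.275). Both markers of activity, Fos by its probeset 1375043_at, thus had a higher mean in all 4 groups, with arms that overlapped in 2 groups each and no call. The second Fos probeset was higher in 2 groups only, with -0.02 and -0.16 in FRL rats of cohort 1 and cohort 2. Egr2, which like Egr1 binds GC-rich promoter sites, had 77.4 to 482 (median 222) in high Arc arrays and 61.0 to 308 (median 87.2) in low Arc arrays (0.79 ± 0.17, adjusted p = 0.144).

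The remaining transcription factors fell into a graded series. Klf4 had a difference of 0.86, Fosb of 0.79, Ier2 of 0.64, Klf10 of 0.55 and Egr4 of 0.49, each higher in all 4 groups at an unadjusted p under 0.05 and none past the adjusted threshold. At the other end stood Nr4a2 with 0.10, Egr3 with -0.11 and Crem with -0.11, none of them with an unadjusted p under 0.05. Nr4a3 depended on the probeset, with 0.69 for 1369217_at, 0.40 for 1369067_at and 0.16 for 1393389_at. Fosl2, Atf3 and Maff were below the filter, and Npas4 and Btg2 were not annotated here.

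Activity-induced effectors had a lower median. Of 28 genes 22 were kept, of which Dusp1 passed the threshold (0.0402% of all probesets did), 9 were higher at an unadjusted p under 0.05 (2.92% of all) and 18 had a positive difference (50.9% of all). The median was 0.18, with Homer1 counted by its brightest probeset. Tiparp, an ADP-ribosyltransferase, had 120 to 290 (median 190) in high Arc arrays and 105 to 200.5 (median 132) in low Arc arrays (0.39 ± 0.08, adjusted p = 0.123). Dusp6, a phosphatase specific for ERK, had 309 to 536 (median 440) and 230 to 471 (median 339), a difference of 0.35 ± 0.08 (adjusted p = 0.185). Per1, a clock repressor that light and neuronal activity also induce, had 65.4 to 197 (median 104) and 18.4 to 126 (median 78.5), a difference of 0.79 ± 0.19 (adjusted p = 0.360). Tiparp, Dusp6 and Per1 had a higher mean in the high Arc arrays of each of the 4 groups by these probesets, without passing the test. The Dusp6 probesets disagree in part, with 0.28 for 1377064_at, and with 0.30 for 1382778_at, which had -0.35 in FSL rats of cohort 2. Among members without an unadjusted p under 0.05, Inhba, an activin subunit, had 0.15, Scg2 -0.03, Nrn1 -0.03 and the kinase Plk2 0.0011. The neurotrophin Bdnf had 0.03, with 0.45 in cohort 2 and -0.27 in cohort 1 (unadjusted p = 0.0121 for the difference, adjusted p = 0.998 by limma).

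Homer1, a postsynaptic scaffold whose short form is an immediate early product, gave different answers by probeset. Probeset 1370997_at had 64.6 to 759 (median 262) in high Arc arrays and 58.1 to 355 (median 105) in low Arc arrays, a difference of 0.87 ± 0.22 (adjusted p = 0.396). The other 4 kept probesets lay between -0.10 and 0.06 with both lines pooled. The difference of 1370997_at was 0.03 in FSL rats and 1.46 in FRL rats. In FSL rats of cohort 1 the high arrays had 64.6, 76.2 and 103 and the low arrays 85.3, 101 and 109, whereas in FRL rats of cohort 1 all high arrays (183 to 304) were above all low arrays (58.1 to 102). The difference between the lines, -1.43 ± 0.34, had an unadjusted p of 0.000384 and an adjusted p of 1.00 by limma over all probesets. Probeset 1370454_at had -0.57 in FSL rats and 0.51 in FRL rats, with an unadjusted p of 0.00217 by limma for the difference. It did not pass the adjusted threshold either. The line differences of 1368318_at, 1368319_a_at and 1370656_a_at were -0.18, -0.11 and -0.10.

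The arrays between the arms were not used by the rule, and the same question can be asked in them. Over these 15 arrays, a slope on log2 Arc was fitted within groups. No probeset passed at an adjusted p under 0.05 by limma, and 1752 had an unadjusted p under 0.05 (7.83%), of which 1216 were positive (5.44%). Nr4a1 had a slope of 0.86 ± 0.11 log2 units per log2 unit of Arc (unadjusted p = 3.83e-06, adjusted p = 0.0856), the smallest p of all. Its intensity in these arrays was 240 to 1037 (median 612). Fos had a slope of 1.49 ± 0.27, Dusp1 (1368146_at) of 1.19 ± 0.25, Egr1 of 0.49 ± 0.12 and Klf2 (1376569_at) of 2.05 ± 0.53, each with an unadjusted p under 0.05 and none past the adjusted threshold. Junb (0.06 ± 0.24) and 1385757_at (0.15) did not show such a slope, with unadjusted p of 0.819 and 0.636. Of the 9 probesets called between the arms, 9 had a positive slope, as did 53% of all probesets, and 5 had an unadjusted p under 0.05. Of the 18 transcription factors 17 had a positive slope and 8 an unadjusted p under 0.05, with a median slope of 0.46, against 0.02 for all probesets. That list was chosen with earlier results of these data known.

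Arc taken as a number over all 39 arrays gave 39 probesets, all positive, which is 0.174% of those tested. These arrays include the 24 of the arms, so this is another reading of the same data. With the mean of each group taken out, the correlation with log2 Arc over the 39 arrays was 0.94 for Nr4a1, 0.84 for Fos, 0.83 for Dusp1 (1368146_at), 0.77 for Junb, 0.76 for Egr2, 0.76 for Egr1, 0.71 for Klf2 and 0.51 for Homer1 (1370997_at). All of these values come from the same arrays and share their scaling. Fos and Egr1 passed here, with slopes of 1.09 and 0.33 and adjusted p of 1.69e-07 and 0.000153 by limma. Of the 39 probesets, 28 have a symbol and represent 26 genes, 16 of them in the lists of activity-induced genes. Egr1 and Egr2 were nearer to each other (0.92) than either was to Arc.

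**Figure D3:**
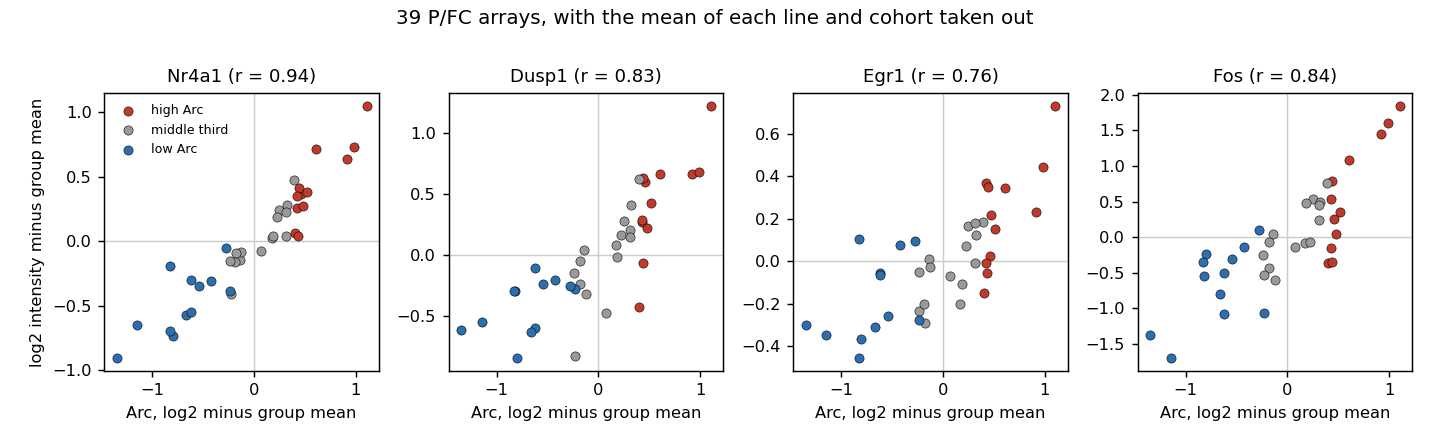
Log2 intensity of Nr4a1, Dusp1 (1368146_at), Egr1 and Fos against log2 Arc in 39 P/FC arrays, with the mean of each line and cohort subtracted from both axes and the arms coloured as before. Points of Nr4a1 (r = 0.94) lie closest to a line and Egr1 has the lowest r of the 4 (0.76).

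FSL and FRL rats were compared in their difference between the arms. No probeset passed by limma's interaction test (smallest adjusted p 0.840), and 731 had an unadjusted p under 0.05 (3.27%). For Nr4a1 the difference was 0.90 in FSL rats and 0.92 in FRL rats, for Dusp1 (1368146_at) 0.75 in FSL rats and 0.90 in FRL rats, for Junb 0.83 in FSL rats and 0.73 in FRL rats, and for Fos 1.37 in FSL rats and 1.17 in FRL rats. Klf2 had 0.74 in FSL rats and 1.74 in FRL rats (unadjusted p = 0.0314), the only one of the 9 called probesets with an unadjusted p under 0.05. Klf4, a relative of Klf2, had 0.17 in FSL rats and 1.36 in FRL rats, a difference of -1.19 ± 0.31 (unadjusted p = 0.00099, adjusted p = 1.00). Apart from Homer1, the smallest p among named genes were those of Asic1 (1387555_at), an acid-sensing ion channel, with 0.29 in FSL rats and -0.25 in FRL rats, Crip1 with -0.39 and 0.17, Wars2, a mitochondrial tRNA synthetase, with 0.15 and -0.37, and Tp53bp1, a DNA repair protein, with a difference between the lines of 0.57 ± 0.15. All of these had an adjusted p of 1.00 with 5 arrays of FSL rats in each arm.

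The cohorts were processed with other reagents and serve as batches. No probeset differed between them in its Arc difference by limma (smallest adjusted p 0.998, with 790 or 3.53% at an unadjusted p under 0.05). Arc itself differed more between the arms in cohort 1 (3.11-fold in FSL and 2.58-fold in FRL rats) than in cohort 2 (2.07-fold and 2.02-fold). Neither this test nor the differences below were scaled to that gap, and its part in them was not tested. Nr4a1 had 0.72 in cohort 2 and 1.05 in cohort 1, and Dusp1 (1368146_at) had 0.83 in cohort 2 and 0.85 in cohort 1. Klf2 had 1.23 in cohort 2 and 1.39 in cohort 1, and Junb 0.93 and 0.66. Egr1 had 0.35 in cohort 2 and 0.44 in cohort 1, and Fos 0.73 and 1.63 (unadjusted p = 0.101 for the difference). All 9 called probesets were higher in high Arc arrays of both cohorts, but they had been called on these same arrays, which largely fixes this outcome. Within a single cohort no probeset passed by limma, with 1109 at an unadjusted p under 0.05 in cohort 2 and 921 in cohort 1. The smallest p for this difference among probesets with a symbol belonged to Casp8, a caspase, with 0.48 in cohort 2 and -0.24 in cohort 1, and Mgat5, a glycosyltransferase, with 0.60 and -0.57. Tafa2, a secreted protein, had -0.37 in cohort 2 and 0.46 in cohort 1, Lamb1, a laminin chain, 0.27 and -0.56, and Smarca2, a chromatin remodeller, 0.42 and -0.26, none of them past the adjusted threshold.

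The same rule was applied to the hippocampus (HIP) of the same lines and cohorts, with 12 high and 12 low arrays there too. The labels do not say which P/FC and HIP arrays share a rat. Arc differed 2.45-fold between the arms in P/FC and 1.64-fold in HIP. In HIP, 6 of 21629 probesets rose (0.0277%) and 1 fell (0.00462%), which was 1385593_at, a probeset with no symbol. Of the 9 probesets called in P/FC, 2 (Nr4a1 and 1385757_at) were called in HIP as well, all 9 were positive there, as 49.5% of all HIP probesets were, and 8 were higher at an unadjusted p under 0.05, as 2.26% of all HIP probesets were. Nr4a1 had a difference of 0.91 ± 0.11 in P/FC and 0.51 ± 0.09 in HIP (adjusted p = 0.0388 by limma). Homer1 (1370997_at), without a call in P/FC at 0.87 ± 0.22, had the smallest p in HIP, at 1.03 ± 0.12 (adjusted p = 0.000219). Fos had 1.26 ± 0.27 in P/FC and 1.12 ± 0.19 in HIP, and Egr1 had 0.40 ± 0.09 and 0.40 ± 0.07, both called in HIP with an adjusted p of 0.0388. Sik1, a salt-inducible kinase, had 0.40 ± 0.14 in P/FC and 0.46 ± 0.07 in HIP (adjusted p = 0.0285). With the Gapdh ratio as a covariate only Homer1 was called in HIP (adjusted p = 0.00105), and the adjusted p of the other HIP calls was 0.0522 or 0.157, with differences of the same sign. A filter of 100 kept Nr4a1, Egr1 and 1385757_at as HIP calls and left the other 4 untested. With quantile normalisation 1385757_at did not pass in HIP (adjusted p = 0.0901).

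The test of the difference between the regions called none of 20962 probesets by limma (smallest adjusted p 1.00, with 586 or 2.8% at an unadjusted p under 0.05). The P/FC and HIP arrays were treated as independent in this fit, although per the paper both regions came from the same rats. All 9 probesets called in P/FC had the larger difference there, 8 with an unadjusted p under 0.05, and these 9 were chosen for their values in P/FC. Arc itself differed 2.45-fold between the arms in P/FC and 1.64-fold in HIP. Neither the test nor the differences were scaled to this gap, and its part in them was not tested. Gpr19, an orphan receptor, had 0.49 in P/FC and 0.04 in HIP (unadjusted p = 0.000443), Elmod2 0.27 and -0.15, Grk1 0.30 and -0.31, and Tnnc1, a troponin, -0.16 and 0.29. The intervals allow a difference in either direction for Egr1 (0.00 ± 0.12) and Fos (0.14 ± 0.34).

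**Figure D4:**
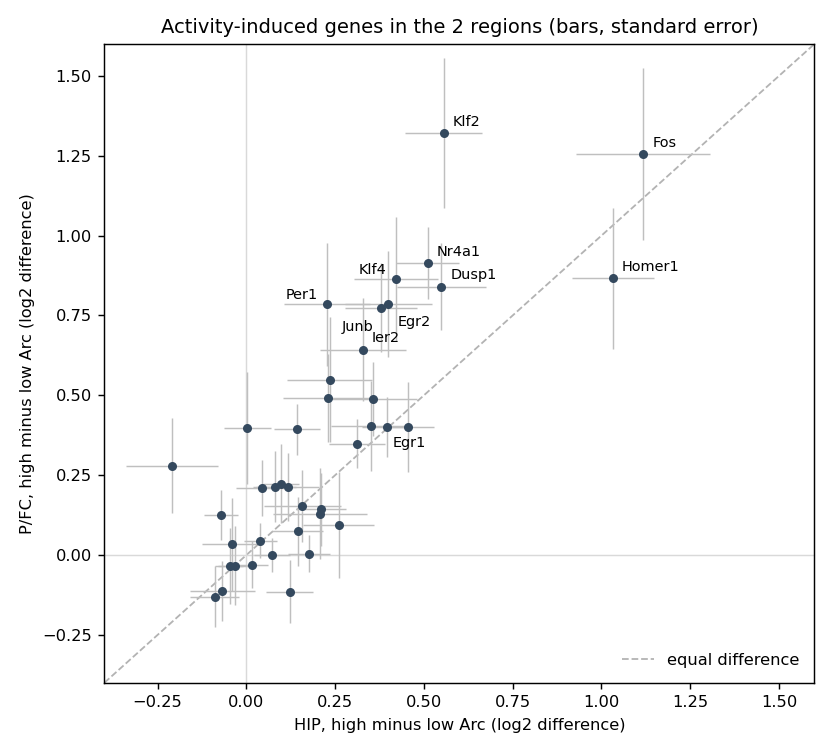
Difference between high and low Arc arrays (log2, with SE bars) in P/FC on the vertical axis and in HIP on the horizontal axis for the kept activity-induced genes, together with Klf2 (1376569_at) and Homer1 (1370997_at); the dashed line marks equal differences. Klf2 (1.32 in P/FC and 0.56 in HIP) lies farthest above the line, while Homer1 (0.87 and 1.03) lies below it. The differences are not scaled to the Arc gap between the arms, which was 2.45-fold in P/FC and 1.64-fold in HIP.

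The kinases and factors that lead from synaptic calcium to these genes gave no call. Of 24 genes for calcium, MAP kinase and CREB or SRF signalling 17 were kept, none passed, and none had an unadjusted p under 0.05. The median difference was -0.01. The transcription factor Srf had 0.08 ± 0.04, Creb1 0.07 ± 0.05, the coactivator Crebbp 0.06 ± 0.05 and the kinase Rps6ka2 -0.12 ± 0.06. The 10 AMPA and NMDA receptor subunits, of which Arc acts on the AMPA receptors, had a median of 0.08. Of these, 9 were positive, as were 50.9% of all probesets, and none passed the threshold. Gria1 had 0.15 ± 0.14, Gria2 0.10 ± 0.09, Grin1 0.07 ± 0.06 and Grin3a 0.13 ± 0.13. Over the 15 arrays between the arms the direction differed, with 3 of the 10 slopes positive and a median slope of -0.11. Among 16 kept partners of Arc in the postsynaptic density and in endocytosis none passed. Dnm2, a dynamin that works with Arc in receptor endocytosis, had -0.32 ± 0.10 (adjusted p = 0.786), the only one with an unadjusted p under 0.05, and Homer2 had 0.15, Shank3 0.09 and Sh3gl3 -0.07.

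Stress hormone and clock genes were examined since the rats had been handled and swim tested. Of 12 kept glucocorticoid-induced genes none passed and 3 were higher at an unadjusted p under 0.05, as 2.92% of all probesets were. Ddit4, an inhibitor of mTORC1, had 0.39 ± 0.09 (adjusted p = 0.185), Nfkbia, the inhibitor of NF-κB, had 0.31 ± 0.12, and Per1, which is also in the effector and clock lists, was the other. Errfi1 had 0.21 ± 0.11, and the median of the list was 0.09. Of 16 kept clock genes 13 were positive with a median of 0.04, among them Per2 with 0.26 ± 0.08 (adjusted p = 0.671), Bhlhe40 with 0.15 and Cry2 with 0.06. Heat shock proteins had a median of 0.0044 over 10, with Hspb1 at 0.26, Hspa1a at 0.14, Dnajb1 at 0.11 and Dnaja1 at -0.05. The 18 genes of oxidative phosphorylation had a narrow spread of -0.08 to 0.01 with a median of -0.03, and 2 were positive. Ndufs1, Ndufa2, Ndufa4 and Atp5f1c, subunits of the respiratory chain and of ATP synthase, had -0.08, -0.07, -0.06 and -0.05.

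**Figure D5:**
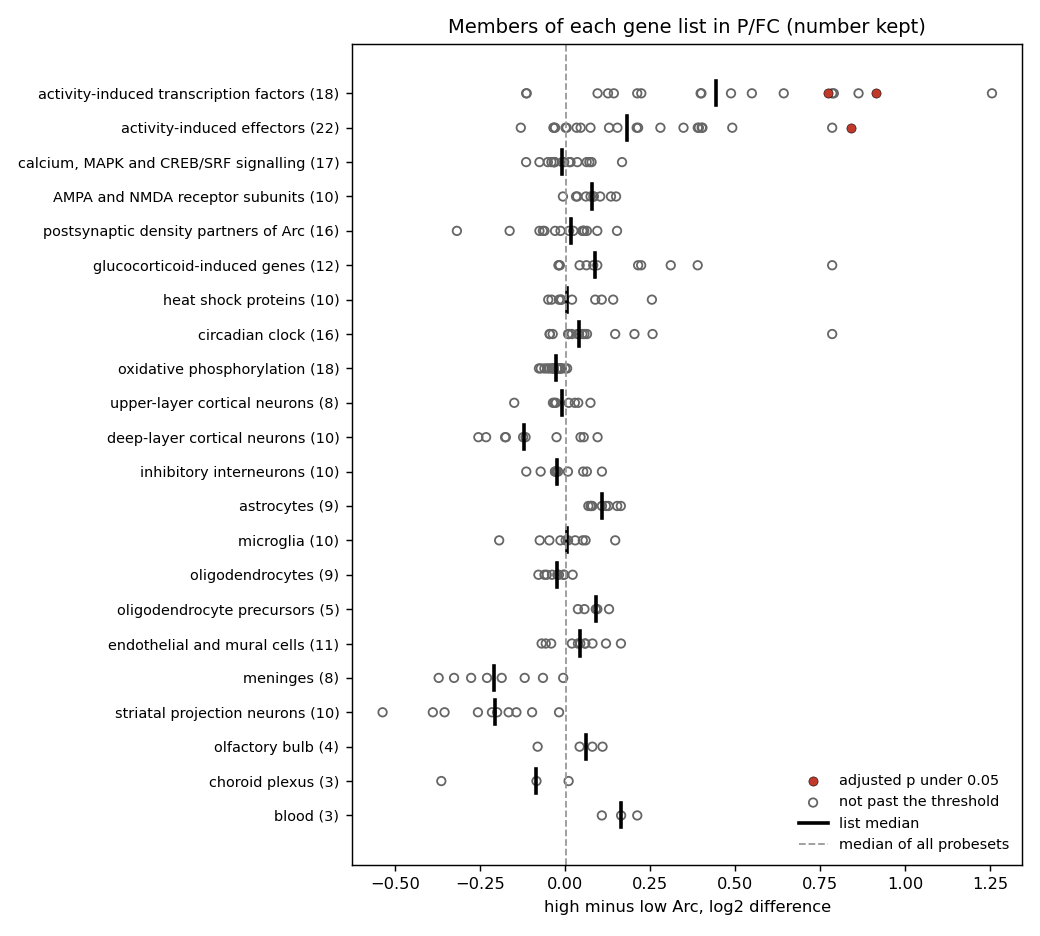
Difference between high and low Arc arrays of P/FC (log2) for each kept member of 22 gene lists, with members past the adjusted threshold filled in red, a black bar at the median of each list and a dashed line at the median of all probesets. The bar of the activity-induced transcription factors is at 0.44 and those of the striatal and meningeal markers are at -0.21, while most other lists have their bar within 0.1 of the line.

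Markers of cell types and neighbouring tissues were followed in the same arrays, and none of their kept members passed the threshold. Deep-layer neurons had a median of -0.12 over 10 genes, of which 3 were positive, the highest being Nr4a2 at 0.10. Tle4 had -0.23 (unadjusted p = 0.0178 by limma), Rprm -0.26, Fezf2 -0.17 and Crym -0.12. Upper-layer neurons had a median of -0.01 over 8, with Pou3f1 at -0.15, Cux2 at 0.07, Rorb at 0.04 and Mef2c at -0.03. Interneurons had -0.02, with Gad2 at 0.11, Htr3a at 0.06, Reln at -0.07 and Pvalb at -0.11. All 9 astrocyte markers were positive with a median of 0.11, among them Fgfr3 at 0.16, Aldh1l1 at 0.15, Slc1a3 at 0.12 and Glul at 0.08. The 5 precursor markers of oligodendrocytes had 0.09, with Cspg4 at 0.13, Olig2 and Pdgfra at 0.09 and Olig1 at 0.04. The summed level of the astrocyte markers was 14724 to 21095 in high Arc arrays and 14080 to 19991 in low Arc arrays. Oligodendrocytes had a median of -0.02, with Ermn, Mal, Ugt8 and Mog between -0.08 and -0.04, microglia 0.0049, with C1qb at 0.15, Ctss at 0.06, Csf1r at 0.05 and Trem2 at -0.19, and endothelial and mural cells had Rgs5 at 0.16, Flt1 at 0.12, Slc2a1 at 0.06 and Acta2 at -0.07.

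Striatal and meningeal markers varied several-fold between arrays in both arms. The summed level of 10 of 11 striatal markers was 2190 to 7024 (median 2820) in high Arc arrays and 2211 to 7538 (median 3403) in low Arc arrays, and all 10 were lower in high Arc arrays, with a median of -0.21 and with Drd2 at -0.54 ± 0.45, Tac1 at -0.39 ± 0.43, Adora2a at -0.36 ± 0.43 and Ppp1r1b at -0.22 ± 0.26. That of 8 of 11 meningeal markers was 1061 to 6259 (median 1481) and 1019 to 6459 (median 1748), again with all 8 lower and a median of -0.21, with Igfbp2 at -0.37 ± 0.42, Ptgds at -0.33 ± 0.37, Igf2 at -0.23 ± 0.28 and Col3a1 at -0.19 ± 0.25. Lum, Slc6a13 and Slc22a6 were below the filter. With both scores as covariates the count of calls was 9, of which 8 were the same probesets. In the 15 arrays between the arms, all 8 meningeal slopes were negative with a median of -1.71, and the array with the highest sum (7415) was FRL P/FC cohort 1 replicate 4. Choroid plexus had Ttr at -0.36 ± 0.24, Aqp1 at -0.08 and Folr1 at 0.01, with Kl, Otx2 and Kcnj13 below the filter, blood had Alas2 at 0.21, Hbb at 0.16 and Slc4a1 at 0.11, and olfactory bulb had Th at 0.11, Calb2 at 0.08, Dlx1 at 0.04 and Cdhr1 at -0.08. The part of these markers in the differences of other genes was not tested beyond that fit.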

How the data were processed

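Total RNA of P/FC and HIP was labelled by the one-cycle Affymetrix protocol and hybridised to Rat Genome 230 2.0 arrays, 1 rat per array and region. Scaling across arrays was done by the authors with Rosetta Resolver software, and the deposited values are 1-colour intensities on a linear scale. Of 2425722 values 16116 were at or below 0, and these were set to 1 before log2 was taken. Probesets over 30 in 50% of the P/FC arrays of each line were kept (22369, with Arc and 57 control probesets left out). The number of arrays limits the precision.

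High and low Arc arrays were compared with limma 3.58.1 in R 4.3.3, with line and cohort group as covariate and Benjamini-Hochberg adjustment over all kept probesets. Interactions tested line, cohort and region. Figures and exact tests used Python 3.11.15. The fits were tested on simulated data. A probeset with 1 gene symbol in the platform annotation was named (16014 kept). Named genes were those called, those with the smallest p in each comparison and members of the lists. The members and lists were chosen with earlier results of these data known. Alternatives changed the filter, scaling, arms and covariates; the spike and median intensity covariates were chosen after seeing the data. Gene lists used the brightest kept probeset of each gene. A result of the region comparison that this rule names is not reported here.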

Additional observations from a re-analysis of the deposited data

Results flagged for a closer look

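Among 69 groups of 4 to 10 arrays examined for an array far from the rest, 2 were found, where this criterion is set so that chance marks about 1 in 20 such groups. Homer1 (1370997_at) had a log2 intensity of 5.104 in FSL P/FC cohort 1 replicate 9, an array between the arms, against 6.01 for the nearest array of that group. The log2 ratio between the 3′ and 5′ Actb probesets was 1.27 in FRL P/FC cohort 2 replicate 7, a high Arc array, against 0.95 for the nearest. The part of either array in the results was not tested beyond leaving out the high Arc array.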

How the results depend on the processing

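The count of 9 probesets higher in high Arc arrays was 3 by plain analysis of variance, 5 with no filter, 31 with each group split at its median Arc, 4 with the group size divided by 4 taken at each end, 39 with log2 Arc as a number and 17 when the first component of the residuals was a covariate. It was 0 by limma within cohort 2, cohort 1, FSL or FRL alone, where 1109, 921, 1242 and 766 probesets had an unadjusted p under 0.05. Leaving out 1 array gave 3 to 13, the highest without FRL P/FC cohort 1 replicate 7. With the replicate block it was 9, the same probesets. The numbers name arrays and are not known to pair rats. The slope between the arms gave 1 call with a filter of 100. The count of 9 was 6 with median intensity as a covariate, 7 with a filter of 100, 8 with the spike level or the Actb ratio and 9 with quantile normalisation, 16 added, the Gapdh ratio or the marker scores. In HIP the count of 7 was 3 with a filter of 100 and 1 with the Gapdh ratio as a covariate. The cause was not tested. Line, cohort and region differences gave 0 by limma under the 3 alternatives run. Of 4351 values for 102 single probesets 4142 kept their direction and side of the threshold, 71 lost the threshold and 19 passed it. The other 119, for 54 probesets, changed sign, all with an adjusted p of 0.867 or more, and no probeset called between the arms was among them.

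Values that changed sign are log2 differences, or slopes where Arc was a number. Within cohort 2 the values were Srf -0.0085, Rps6ka2 0.041, Sh3gl3 0.019, Ndufs1 0.031, Mef2c 0.043, Crym 0.046, Fezf2 0.21, Pvalb 0.029, Reln 0.095, Aldh1l1 -0.014, C1qb -0.0051, Ctss -0.051, Trem2 0.18, Olig2 -0.12, Olig1 -0.026, Slc2a1 -0.018, Igf2 0.0077, Th -0.18, Calb2 -0.12, Dlx1 -0.10, Asic1 0.023, Crip1 0.022, Mgat5 0.60, Tafa2 -0.37 and Lamb1 0.27. Within cohort 1 the values were Homer2 -0.021, Cux2 -0.11, Ermn 0.088, Mal 0.055, Ugt8 0.12, Mog 0.10, Pdgfra -0.012, Cdhr1 0.074, Aqp1 0.011, Folr1 -0.054, Casp8 -0.24 and Smarca2 -0.26. Within FSL rats the values were Cry2 -0.0047, Atp5f1c 0.0043, Cux2 -0.053, Rorb -0.041, Crym 0.027, Csf1r -0.024, Mal 0.012, Ugt8 0.022, Mog 0.041, Pdgfra -0.067, Flt1 -0.083, Slc2a1 -0.043, Tac1 0.36, Cdhr1 0.25, Folr1 -0.051, Alas2 -0.021, Hbb -0.12, Asic1 0.29, Wars2 0.15, Tp53bp1 0.24, Casp8 -0.20 and Tafa2 -0.040. Within FRL rats the values were Mef2c 0.0039, Htr3a -0.026, Pvalb 0.089, Gad2 -0.14, Ptgds 0.085, Igfbp2 0.23, Igf2 0.030, Col3a1 0.13, Calb2 -0.064, Dlx1 -0.12 and Crip1 0.17. With log2 Arc as a number the values were Gria2 -0.030, Grin3a -0.0029, Cux2 -0.026, Ermn 0.083, Mal 0.061, Ugt8 0.062, Mog 0.073, Cdhr1 0.029, Casp8 -0.044 and Smarca2 -0.083. With the group size divided by 4 taken at each end the values were Cux2 -0.0066, Ermn 0.072, Mal 0.13, Ugt8 0.11, Mog 0.12 and Cdhr1 0.055. With groups split at their median the values were Gad2 -0.036, Ermn 0.026 and Calb2 -0.010. With the marker scores as covariates the values were Mal 0.0042, Ugt8 0.011 and Mog 0.014. With quantile normalisation the value was Folr1 -0.0012. With 1 array left out the ranges that crossed 0 were Asic1 -0.071 to 0.0099, Cdhr1 -0.26 to 0.065, Dlx1 -0.013 to 0.091, Folr1 -0.016 to 0.047, Mal -0.16 to 0.020, Mgat5 -0.17 to 0.0061, Mog -0.13 to 0.036, Olig1 -0.024 to 0.090, Smarca2 -0.018 to 0.070 and Ugt8 -0.13 to 0.031.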

Other observations

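Taken over all 39 P/FC arrays, Arc also went with genes outside the lists, which were chosen after their values were seen. Ppp1r15a, which restarts translation after stress, had a slope of 0.28 log2 units per log2 unit of Arc (adjusted p = 0.000804 by limma), Kmt2a, a histone methyltransferase, 0.34 (adjusted p = 0.0136) and the orphan receptor Gpr19 0.34 (adjusted p = 0.0155). The interferon genes Ifit2 and Irf9 had 0.28 and 0.27 (adjusted p = 0.0204 and 0.0286), and Clk1, a splicing kinase, 0.20 (adjusted p = 0.0388). Between the high and low Arc arrays none of these genes passed by limma, the smallest adjusted p being 0.108 for Ppp1r15a. Irf9 had a difference of -0.05 in FRL rats of cohort 2, and Ifit2 had a mean intensity of 40.1, near the filter of 30.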
